A study of Mus musculus with 8 samples.

Results

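The comparison set the mouse cell line EHE26 (n = 2 libraries) against the mouse cell line EHE17 (n = 3 libraries), over all genes of the count table. These are 5 of the 8 RNA sequencing libraries of the study, and the remaining 3 are from a line called EHE6. EHE stands for epithelioid hemangioendothelioma, a rare vascular cancer. The labels give the lines by name only, with no genotype, passage or treatment, so what else the lines share is not described here. Nothing in the labels says that the replicates came from separate cultures, so the p-values measure only the spread between these libraries, which may be technical. Total counts were 75967830, 96237665 and 48521022 in EHE17 replicates 1, 2 and 3, and 55802651 and 47469274 in EHE26 replicates 1 and 2.

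EHE cells have features of blood vessel endothelium, and most human tumours carry a fusion of WWTR1, which encodes the transcriptional co-activator TAZ, with CAMTA1, a transcription factor gene. In endothelial cells, as in most cells, type I interferon binds its receptor and activates the kinases JAK1 and TYK2. Transcription factors that include STAT2 and IRF9 then bind interferon-stimulated response elements in promoters of antiviral genes, and interferon also raises MHC class I, which presents peptides to T cells.

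EHE17 replicate 3 stood apart from its own line. CPM is a read count scaled to the size of its library. On the first principal component of log2 CPM, which held 56.2% of the variance, EHE17 replicates 1 and 2 lay at -113.7 and -102.6, EHE17 replicate 3 at 41.69 and EHE26 at 126.2 and 148. Its Spearman correlation over genes was 0.938 and 0.930 with its own line and 0.935 and 0.924 with EHE26, against 0.971 between EHE17 replicates 1 and 2 and 0.977 between the EHE26 libraries. EHE6 replicates 1 and 2 lay on the side of EHE17 replicates 1 and 2, and EHE6 replicate 3 on the side of EHE26. Genes with at least 1 read numbered 25177 and 24641 in EHE17 replicates 1 and 2, 20682 in replicate 3, and 20618 and 20258 in EHE26. The 2 sets of libraries used below are the 2 sides of the first principal component, taken from these same data. The labels do not say what the sets are. For EHE26, which lay wholly in 1 set, line and set can be told apart only through EHE17 replicate 3 and the EHE6 libraries.

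For most findings, the place of EHE17 replicate 3 is given on the log2 CPM scale, where 0 is the mean of EHE17 replicates 1 and 2 and 1 the mean of EHE26. A place under 0.3 is called with EHE17, one over 0.7 with EHE26, and one from 0.3 to 0.7 between them. Places below 0, where replicate 3 lies beyond replicates 1 and 2 and away from EHE26, also count as with EHE17.

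Of 18882 genes tested with edgeR's quasi-likelihood test on all 8 libraries, 203 (1.08%) were called, which took a Benjamini-Hochberg adjusted p below 0.05 and a change of 1 or more on the log2 scale in either direction. In EHE26, 168 rose (0.89%) and 35 fell (0.185%). In all 203 the EHE26 libraries did not overlap any EHE17 library, a property that 18.7% of tested genes had with EHE26 above and 20.3% with EHE26 below. Among the called genes EHE17 replicate 3 lay with its own line in 159 of the 168 that rose and 34 of the 35 that fell, between in 9 and 1, and with EHE26 in 0. In 80 of the 168 and 16 of the 35 its place was below 0, beyond the mean of replicates 1 and 2. The call used that library, so it partly fixes this result, and the fit without it is given further on.

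The number of calls rested on single libraries. It was 7 without EHE17 replicate 1, 2 without EHE17 replicate 2, 43 without EHE26 replicate 1, 21 without EHE26 replicate 2, 113 and 118 without EHE6 replicates 1 and 2, and 1415 without EHE6 replicate 3. Of the genes named by rule, only 2 and 1 were called without EHE17 replicate 1 and replicate 2, so nearly every single call described here was lost in those fits. All 203 genes kept their direction in each of these fits that tested them. With the set of libraries added beside the line, 159 of the 203 were still called, and of the genes named below Ackr4, Cspg4, Cyp1b1, Dhx58, Inhba, Irf7, Oas1g and Pfkp were not. DESeq2 called 1685 genes, with 693 higher and 992 lower, so genes that rose outnumbered those that fell by edgeR's test here but not by DESeq2.

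Interferon-stimulated genes had the most called members of any list, and EHE17 replicate 3 lay with its own line. Of 35 tested effectors of the interferon response, 20 rose and 0 fell, with log2 fold changes from 2.10 to 6.68. The median over the 35 was 3.82, against -0.11 over all tested genes, and 33 of the 35 were higher and 1 lower at an unadjusted p under 0.05. EHE17 replicate 3 lay with EHE17 in all 20. The summed level of the list was 1350, 1790 and 2149 CPM in EHE17 and 8831 and 9381 CPM in EHE26. Without EHE17 replicate 3 there were 16 called effectors, and in all 16 that library lay with EHE17. Without EHE17 replicate 1 or 2 there were 0 called effectors, and without EHE26 replicates 1 and 2 there were 7 and 2.

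Ifit3, whose product binds viral RNA complexes, was at 4.20, 6.05 and 3.75 CPM in the EHE17 libraries and at 348 and 424 CPM in EHE26, a log2 fold change of 6.37 ± 0.65 (SE; adjusted p = 0.00875, edgeR). The 3 EHE17 libraries lay close together and far below both EHE26 libraries. Its neighbour and near copy Ifit3b had a log2 fold change of 6.40 ± 0.66, and reads may be split between the 2 genes in an uncertain way. Mx1, a GTPase that blocks influenza viruses, was at 0.162, 0.199 and 0.241 CPM in EHE17 and at 26.8 and 14.5 CPM in EHE26 (log2 fold change 6.68 ± 0.83, adjusted p = 0.013). Sp100, a component of nuclear bodies, was at 2.20, 4.01 and 2.87 CPM against 171 and 182 CPM. Ifi44 was at 22.7, 13.6 and 32.0 CPM against 393 and 539 CPM. In each of these genes EHE17 replicate 3 lay with EHE17, and the lines did not overlap. Ifi205 and Phf11b, which are also interferon-inducible, rose by 8.42 and 7.69 on the log2 scale. The sizes of the largest rises rest on few reads in EHE17, with sums over its 3 libraries of 9 reads for Gbp2b, 11 for Ifi205, 19 for Oas2, 24 each for Oas1g and Phf11b, and 43 for Mx1. Ifi27, another gene of the list, went the other way, with 127, 181 and 174 CPM in EHE17 and 54.4 and 23.8 CPM in EHE26, and did not pass the test (log2 fold change -2.04, adjusted p = 0.0703).

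The OAS genes encode enzymes that sense double-stranded RNA and activate RNase L. Of 8 tested, 4 rose and 0 fell. Oas2 was at 0.0746, 0.0996 and 0.0803 CPM in EHE17 and at 17.6 and 55.9 CPM in EHE26 (log2 fold change 8.72 ± 0.96, adjusted p = 0.0104), the largest called rise. Oas3 was at 0.323, 0.343 and 0.522 CPM against 60.5 and 187 CPM. Oas1a was at 1.7, 5.42 and 2.65 CPM against 114 and 114 CPM, and Oas1g at 0.112, 0.0886 and 0.140 CPM against 16.5 and 23.6 CPM. EHE17 replicate 3 lay with EHE17 in all 4, and the Oas1 genes are near-identical copies among which the authors' counting may have split reads.

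The guanylate-binding and immunity-related GTPases attack the vacuoles of intracellular pathogens, and 7 of 16 tested rose and 0 fell, with EHE17 replicate 3 with EHE17 in all 7. Iigp1 was at 4.65, 4.98 and 5.62 CPM in EHE17 and 235 and 163 CPM in EHE26 (log2 fold change 5.29 ± 0.49, adjusted p = 0.00779). Gbp3 was at 9.97, 10.8 and 6.74 CPM against 125 and 109 CPM (3.67 ± 0.30). Gbp5 and Igtp rose by 4.62 and 3.12 on the log2 scale. Gbp2b, which is not on that list, was at 0.0249, 0.0553 and 0.0401 CPM in EHE17 and at 12.8 and 8.03 CPM in EHE26. The cytosolic RNA sensor Ifih1 (MDA5) was at 10.4, 9.26 and 10.8 CPM against 114 and 131 CPM, and Dhx58 (LGP2), its regulator, at 5.96, 12.6 and 9.91 CPM against 88.1 and 93.3 CPM. Both rose, and they were the 2 called of 23 tested genes of nucleic acid sensing and necroptosis. All the guanylate-binding proteins named belong to a cluster of close copies, so the split of reads among them is uncertain.

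Within the signalling pathway itself 4 of 22 tested genes rose, 0 fell, and the median log2 fold change was 0.15. Among the 4 were the transcription factors Stat2 and Irf7 and the feedback protease Usp18. Stat2 was at 29.2, 36.3 and 35.6 CPM in EHE17 and 201 and 236 CPM in EHE26 (log2 fold change 2.70 ± 0.42, adjusted p = 0.0327). Irf7, which amplifies interferon production, was at 4.96, 15.4 and 7.80 CPM against 566 and 808 CPM. Usp18 was at 2.34, 4.94 and 9.25 CPM against 161 and 215 CPM. EHE17 replicate 3 lay with EHE17 in all 4. Irf9, the DNA-binding partner of STAT2, was at 32.1, 53.7 and 34.7 CPM against 134 and 126 CPM and missed the threshold (adjusted p = 0.0647). In Irf9 too, replicate 3 lay with EHE17. The receptor genes did not pass the test: Ifnar1 was at 196, 221 and 108 CPM against 211 and 119 CPM, and Ifnar2 at 94.8, 109 and 73.5 CPM against 107 and 72.6 CPM. The levels of the 2 lines overlapped for both receptor genes. Type I and III interferon genes had too few reads to be tested, with a summed level of at most 0.0221 CPM in any EHE17 library and 0.147 and 0.570 CPM in EHE26.

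**Figure D1:**
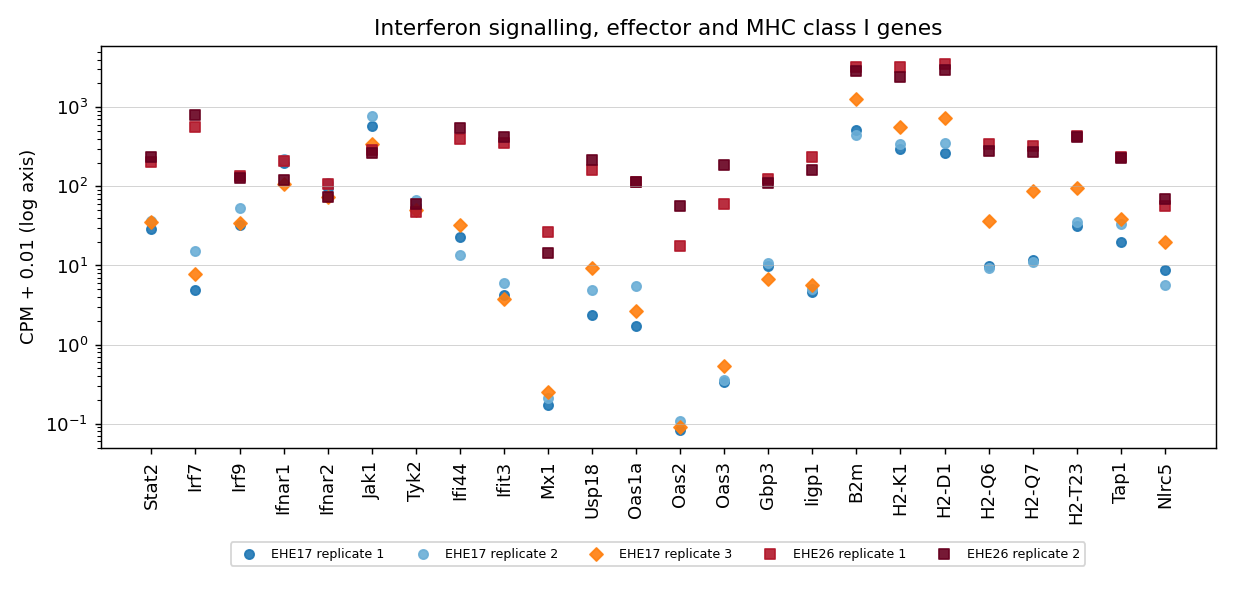
Level in each of the 5 libraries (CPM plus 0.01, log axis) of genes of interferon signalling, effectors and MHC class I; circles are EHE17 replicates 1 and 2, diamonds EHE17 replicate 3 and squares EHE26. From Ifi44 to Iigp1 the diamond lies near the circles, as for Ifit3 at 3.75 CPM against 348 and 424 CPM in EHE26, while for B2m, H2-Q6, H2-Q7 and H2-T23 it lies between.

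Promoters of these genes are shown because the genes rose together and the interferon-stimulated response element is the sequence through which the complex with STAT2 and IRF9 acts. The 250 bases before the start of Oas3 (chr5:120777660-120777909, minus strand), Ifit3 (chr19:34583279-34583528, plus strand), Gbp3 (chr3:142559794-142560043, plus strand, the first of 2 starts) and H2-T22 (chr17:36042743-36042992, minus strand) are from RefSeq on GRCm38.p6, written 5′ to 3′ on the strand of the gene. Capitals mark matches to the core of the element, GAAA, any 2 bases and GAAA again, or on the other strand TTTC, any 2 bases and TTTC, and in Gbp3 2 matches overlap.
Oas3: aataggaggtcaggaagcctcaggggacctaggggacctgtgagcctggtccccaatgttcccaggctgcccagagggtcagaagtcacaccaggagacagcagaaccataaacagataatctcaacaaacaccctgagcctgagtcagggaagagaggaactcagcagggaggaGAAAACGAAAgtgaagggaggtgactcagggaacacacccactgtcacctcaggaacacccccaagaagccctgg
Ifit3: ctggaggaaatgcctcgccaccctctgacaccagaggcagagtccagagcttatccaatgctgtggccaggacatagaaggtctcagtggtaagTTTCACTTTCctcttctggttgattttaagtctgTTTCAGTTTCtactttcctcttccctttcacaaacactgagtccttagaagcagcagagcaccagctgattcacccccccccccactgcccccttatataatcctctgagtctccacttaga
Gbp3: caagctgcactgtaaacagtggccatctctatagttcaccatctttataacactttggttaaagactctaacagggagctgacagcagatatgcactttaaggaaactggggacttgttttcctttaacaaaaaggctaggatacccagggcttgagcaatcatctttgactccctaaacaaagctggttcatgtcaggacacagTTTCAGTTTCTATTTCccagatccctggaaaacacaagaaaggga
H2-T22: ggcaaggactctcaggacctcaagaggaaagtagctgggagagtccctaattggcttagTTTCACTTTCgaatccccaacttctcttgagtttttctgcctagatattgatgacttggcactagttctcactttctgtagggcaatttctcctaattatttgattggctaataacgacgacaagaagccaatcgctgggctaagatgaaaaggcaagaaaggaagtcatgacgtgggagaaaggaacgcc

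Promoter windows of 300 bases (250 before to 50 after the start) were at hand for 114 of the 168 genes that rose and 29 of the 35 that fell. The core letters, on either strand, were in windows of 29 of the 114 (25.4%) and of 2 of the 29 (6.9%), against 3.99% of the 27025 genes with such a window and 3.81% of the 12479 tested genes with one. Of the genes that rose on the interferon, MHC class I, and nucleic acid sensing and necroptosis lists, 18 of 32 (56.2%) had them. Of the other genes that rose, 11 of 82 (13.4%) did. A stricter form, the same core with CT directly after it, was in 17 of the 114 (14.9%) and 0 of the 29. It was in 0.303% of all genes with a window and 0.393% of the tested genes with one. A match is a description of letters in a window. The windows of Irf7, Sp100, Ifi44, H2-Q6, H2-K1 and Tap1 held none, nor did that of the second start of Gbp3.

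Of 23 tested genes of MHC class I presentation 8 rose and 0 fell, and here EHE17 replicate 3 lay between the lines for part of them. The 8 had log2 fold changes from 1.82 to 4.08, and the median over all 23 was 2.47. The summed level was 2797, 3067 and 4926 CPM in EHE17 and 15510 and 13040 CPM in EHE26. At an unadjusted p under 0.05, 21 of the 23 were higher and 0 lower. Among the 8, EHE17 replicate 3 lay with EHE17 in 5 and between in 3. In the edgeR fits that left out 1 library the list had 1 call without EHE17 replicate 1, 0 without EHE17 replicate 2 or either EHE26 library, 3 without EHE6 replicate 1 or 2, 14 without EHE6 replicate 3 and 10 without EHE17 replicate 3. The heavy chain gene H2-K1 was at 293, 346 and 562 CPM in EHE17 and at 3225 and 2401 CPM in EHE26 (log2 fold change 2.81 ± 0.35, adjusted p = 0.013). H2-T23, which encodes the non-classical Qa-1, was at 31.3, 35.5 and 95.6 CPM against 428 and 418 CPM. H2-Q6, another non-classical gene, was at 9.75, 9.23 and 36.1 CPM against 345 and 277 CPM. In all 3, replicate 3 was the highest EHE17 library and still far below EHE26. The peptide transporter gene Tap1 was at 19.8, 33.7 and 38.6 CPM against 237 and 230 CPM, and replicate 3 lay with EHE17 (log2 fold change 2.93 ± 0.30, adjusted p = 0.00875). B2m, the light chain of class I, was at 520, 447 and 1261 CPM against 3238 and 2902 CPM and missed the threshold (adjusted p = 0.0875).

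The difference within EHE17 was tested in a fit with 1 mean for each line in each set of libraries, where the single EHE17 replicate 3 is assumed to vary like the other libraries. The sets were chosen from these same data, so the counts of calls in this fit are not those of a grouping known beforehand. There 4.18% of tested genes differed between replicate 3 and replicates 1 and 2, 257 higher in replicate 3 (1.36%) and 532 lower (2.82%). Of the 23 class I genes 4 were higher in replicate 3, namely B2m, H2-Q6, H2-Q7 and H2-T23, and 0 were lower. Of the 35 effectors 1 was higher and 0 were lower. B2m differed by 1.38 (adjusted p = 0.0435) and H2-Q6 by 1.93 (adjusted p = 0.0243) on the log2 scale. H2-Q6 and H2-Q7 are close copies, so the split of reads between them is uncertain.

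The fit without EHE17 replicate 3 leaves that library out of the calls, so its place is then a measurement the calls did not use directly. EHE6 replicate 3, which lay on the same side of the first principal component, stayed in the fit. Genes that differ between the sets then vary more within EHE6 and are harder to call. The places among the calls are thus still partly fixed by the choice of libraries. It called 147 of 19019 genes (0.773%), 114 higher in EHE26 (0.599%) and 33 lower (0.174%), and 111 of the 147 were also among the 203. Among the 114, EHE17 replicate 3 lay with its own line in 87, between in 25 and with EHE26 in 2. Among the 33 it lay with its own line in 18, between in 6 and with EHE26 in 9. The same shares over genes that were not called but differed by 1 or more on the log2 scale were 45.4%, 22.3% and 32.3% of 2617 higher genes, and 30.7%, 22.4% and 46.9% of 4854 lower genes. The called higher genes thus had EHE17 replicate 3 with its own line in 76.3% and the called lower genes in 54.5%. The number of calls was 0 without EHE6 replicate 1, EHE17 replicate 1, EHE17 replicate 2 or EHE26 replicate 2, 1 without EHE26 replicate 1, 55 without EHE6 replicate 2 and 4150 without EHE6 replicate 3. In the fits with 0 calls, 3275, 2667, 2102 and 1801 genes had an unadjusted p under 0.05, in the order given.

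**Figure D2:**
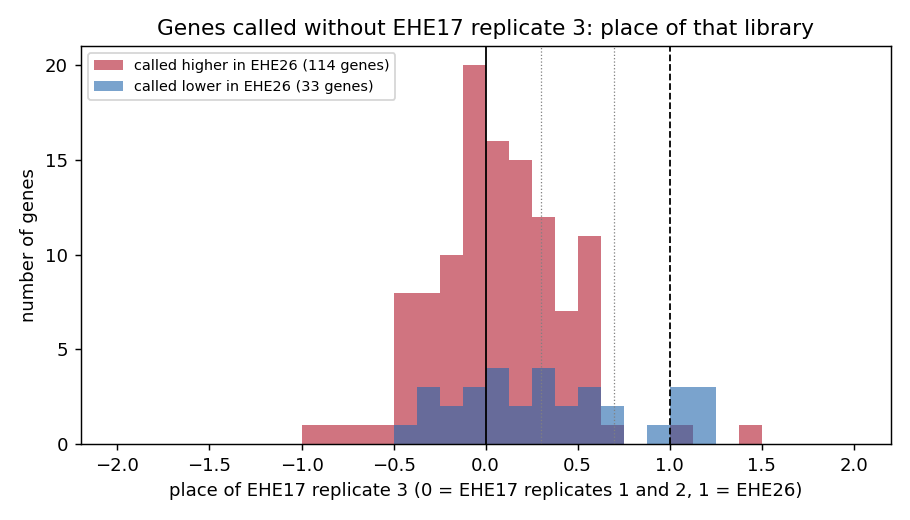
Place of EHE17 replicate 3 (0 is the mean of EHE17 replicates 1 and 2, 1 the mean of EHE26, on log2 CPM) for the 147 genes called without that library; dotted lines mark 0.3 and 0.7, bars count genes. Of the 114 higher genes 87 lie under 0.3, and 9 of the 33 lower genes lie over 0.7.

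Among these 147 calls, 11 genes had EHE17 replicate 3 with EHE26. Over all tested genes that differed by 1 or more on the log2 scale between EHE26 and EHE17 replicates 1 and 2, the share was 40.6% (3052 of 7526), against 37.2% with EHE17. Thbs2, a matricellular protein gene, was at 2.87 and 2.20 CPM in EHE17 replicates 1 and 2, at 51.3 CPM in replicate 3 and at 49.8 and 42.2 CPM in EHE26. Rtl1, an imprinted gene, was at 29.3 and 99.5 CPM in EHE17 replicates 1 and 2 and at 0, 0.0368 and 0 CPM in the other 3. The mitochondrial gene mt-Co2 was at 30.6 and 24.6 CPM against 7.0, 5.72 and 6.51 CPM. With all EHE17 libraries counted, the lines overlapped for Thbs2 and Rtl1 and were next to each other without overlap for mt-Co2, and none of the 3 was called in the line-only fit to all 8 libraries. The others placed with EHE26 were Tll1 among higher genes and Col1a2, Dach1, Spock2, Nsg2, Pcdhga12, Gprc5c and Iglon5 among lower genes. Of the higher genes placed between, Slfn8 was at 0.273 and 0.221 CPM, 1.5 CPM in replicate 3 and 31.9 and 29.8 CPM in EHE26, and Ncam1, a cell adhesion gene, at 2.70 and 2.72, 8.67, and 99.9 and 91.8 CPM. Ly6a (Sca-1) was at 5.83 and 3.83, 18.1, and 128 and 241 CPM. In these 3 genes replicate 3 lay above both other EHE17 libraries and below both EHE26 libraries.

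**Figure D3:**
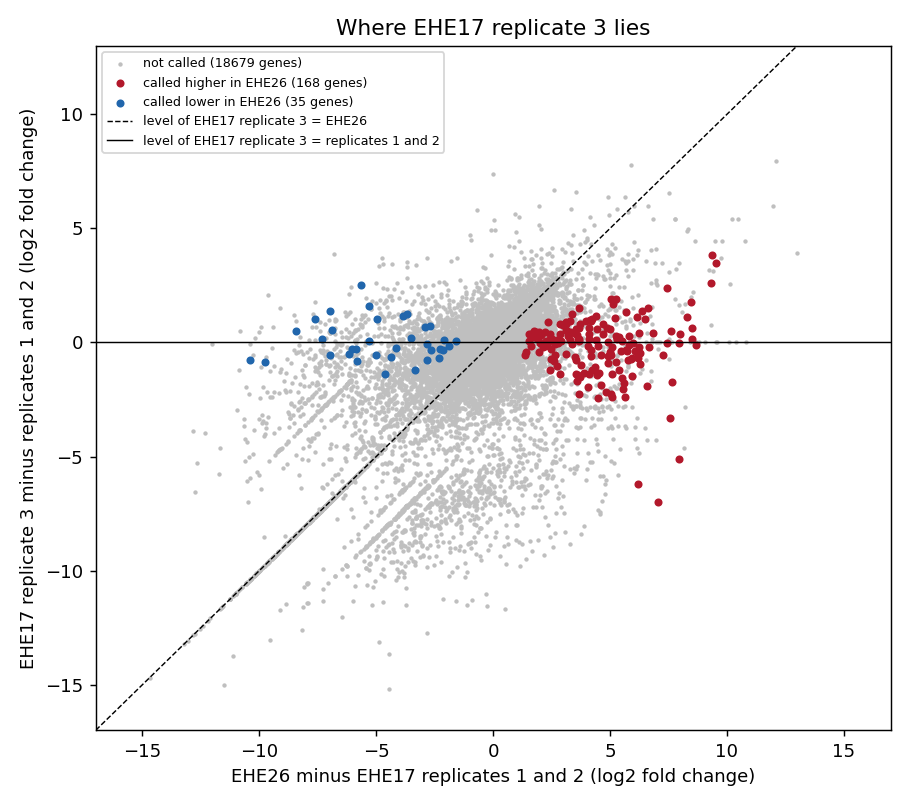
For each tested gene, the log2 fold change of EHE26 over EHE17 replicates 1 and 2 (horizontal) and of EHE17 replicate 3 over the same 2 libraries (vertical); red and blue points are the 168 genes that rose and the 35 that fell. Of the 203 called genes 193 were placed with EHE17, near or beyond the line at 0, and 0 with EHE26; the lowest red points, such as Pdzrn3 and Trpc6, had no read in replicate 3.

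Set against EHE17 replicate 3 alone, in the fit with 1 mean for each line in each set, EHE26 differed in 1175 genes (6.22%), 677 higher (3.59%) and 498 lower (2.64%). Set against EHE17 replicates 1 and 2 in the same fit it differed in 4091 genes (21.7%), 1630 higher (8.63%) and 2461 lower (13%). These comparisons share the EHE26 libraries. The calls of the line-only fit also used EHE17 replicate 3, so their overlap with calls against it is partly fixed in advance. Of the 168 genes that rose 153 were also called against replicate 3 alone, as were 35 of the 35 that fell.

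Of 15 tested lymphatic endothelial genes 0 rose and 2 fell, with EHE17 replicate 3 with EHE17 in both, and the median log2 fold change was -3.32. In 13 of the 15 the fold change was negative and in 2 positive. Lyve1, a hyaluronan receptor of lymphatic vessels, was at 476, 342 and 2352 CPM in EHE17 and at 11.1 and 5.0 CPM in EHE26 (log2 fold change -7.04 ± 1.11, adjusted p = 0.0331). Mmrn1, a secreted multimerin of endothelium and platelets, was at 60.8, 77.7 and 143 CPM against 0.534 and 0.154 CPM (-8.07 ± 1.34, adjusted p = 0.0381). In both genes replicate 3 was the EHE17 library farthest from EHE26, and Lyve1 differed within EHE17 by 2.52 on the log2 scale (adjusted p = 0.0394). Prox1, the master transcription factor of lymphatic identity, was at 221, 111 and 268 CPM in EHE17 and at 20.2 and 0.724 CPM in EHE26 and did not pass the test (adjusted p = 0.249). Flt4, the receptor for VEGF-C, was at 1679, 1904 and 1090 CPM against 296 and 230 CPM (adjusted p = 0.186). Neither gene overlapped between the lines, and for Prox1 replicate 3 lay with EHE17. The lines did overlap for Pdpn, another lymphatic marker, at 2.06, 2.06 and 16.2 CPM in EHE17 and at 1.47 and 7.85 CPM in EHE26. The 2 genes of the list with a positive fold change were Foxc2 and Sema3d. Foxc2, a transcription factor gene of lymphatic valves, was at 13.8, 13.1 and 8.67 CPM against 44.5 and 47.3 CPM. Sema3d, a guidance gene, was at 1.38, 1.53 and 6.22 CPM against 155 and 58.8 CPM. Neither passed the test with the line as the only term, and both were called against EHE17 replicates 1 and 2 and against replicate 3 in the fit with 1 mean for each line in each set. Both calls on this list were lost when EHE6 replicate 1 or 2, EHE17 replicate 1 or 2 or either EHE26 library was left out, and 1 call, Lyve1, was made without EHE17 replicate 3.

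Of 31 tested pan-endothelial genes, 1 rose and 1 fell, with a median of -1.22. Cd34, a sialomucin of endothelial and progenitor cells, was at 13.7, 22.9 and 16.7 CPM in EHE17 and at 461 and 357 CPM in EHE26 (log2 fold change 4.53 ± 0.39, adjusted p = 0.00779). Plvap, which forms the diaphragms of fenestrae, was at 3955, 3505 and 5941 CPM against 538 and 442 CPM (-3.19 ± 0.38, adjusted p = 0.012). In both, EHE17 replicate 3 lay with EHE17. The defining endothelial markers were read in all 5 libraries. Pecam1 was at 1675, 1651 and 1382 CPM against 1401 and 1295 CPM, Cdh5 at 3400, 3290 and 1963 CPM against 1960 and 2033 CPM, and Erg at 238, 233 and 260 CPM against 233 and 121 CPM. For Pecam1 and Cdh5 replicate 3 lay with EHE26, and for Erg with EHE17. Kdr, the main VEGF receptor gene, was at 569, 669 and 243 CPM against 102 and 46.2 CPM, with replicate 3 between, and did not pass the test (adjusted p = 0.326). Tie1 was at 876, 1212 and 714 CPM against 202 and 37.3 CPM, and Tek, which encodes the angiopoietin receptor, at 248, 188 and 156 CPM against 122 and 47.4 CPM. The lines did not overlap for Kdr, Tie1 or Tek, and neither Tie1 nor Tek passed the test (adjusted p = 0.234 and 0.446).

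Genes of mesenchymal and mural cells had larger medians against EHE17 replicate 3 than against the other 2 EHE17 libraries. Of 21 tested fibroblast and mesenchymal genes 1 rose, Ccdc80, an extracellular matrix protein gene (2.35, 5.48 and 2.99 CPM in EHE17, 321 and 88.3 CPM in EHE26, log2 fold change 5.82 ± 0.71, adjusted p = 0.013). Of 17 smooth muscle and pericyte genes 2 rose. Cspg4 (NG2, a pericyte proteoglycan) was at 0.422, 0.432 and 0.0803 CPM against 18.5 and 24.5 CPM, and Cd248 (endosialin) at 0.969, 0.985 and 2.17 CPM against 22.2 and 19.1 CPM. In the fit with 1 mean for each line in each set, the median log2 fold changes were 1.22 and 0.51 against EHE17 replicates 1 and 2. Against the single replicate 3 they were 3.68 and 3.67. The growth factor receptor genes Pdgfra and Pdgfrb and the transcription factor gene Twist1 were chosen after their values were seen. Pdgfra was at 1.76, 1.7 and 1.14 CPM against 77.5 and 59.8 CPM. Pdgfrb was at 1.75, 2.14 and 0.401 CPM against 63.0 and 28.9 CPM. Twist1 was at 0.410, 0.188 and 1.10 CPM against 68.0 and 62.8 CPM. In these 3 genes EHE17 replicate 3 was with EHE17, and none passed with the line as the only term.

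Markers of other cells give a mixed picture beside these genes. Col1a1 was at 4.83, 7.11 and 1.0 CPM in EHE17 and at 7.23 and 5.53 CPM in EHE26, Col1a2 at 7.23, 9.73 and 0.0401 CPM against 0.129 and 0.132 CPM, and Dcn at 46.7, 43.2 and 8.71 CPM against 206 and 18.0 CPM. The smooth muscle markers Myh11 and Des were at most 1.03 and 0.987 CPM in any of the 5 libraries, and both were at 0 in EHE17 replicate 3. Acta2, another such marker, was at 12.6, 54.3 and 7.20 CPM in EHE17 and at 64.6 and 30.7 CPM in EHE26. The pericyte marker Rgs5 was at 4.41, 4.15 and 0.221 CPM against 7.30 and 67.5 CPM. The summed levels of the lists were 7283, 9089 and 6450 CPM against 8764 and 11700 CPM for fibroblast and mesenchymal genes, and 1389, 1385 and 706 CPM against 1354 and 1393 CPM for mural genes. Their part in the results was not tested. The pan-leukocyte marker Ptprc was at most 0.789 CPM in any of the 5 libraries, Cd3e was at 0 in both EHE26 libraries, and the macrophage marker Cd68 was at 5.68, 4.06 and 29.5 CPM in EHE17 and at 2.41 and 3.53 CPM in EHE26, highest in EHE17 replicate 3. The 18 leukocyte genes of the list summed to 91.4 to 154 CPM in EHE17 and to 75.0 and 54.0 CPM in EHE26. In such bulk libraries fewer cells of a kind and less RNA per cell cannot be told apart.

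Ptges and Slco2a1, genes of prostaglandin synthesis and transport, were among the largest rises. Ptges, the inducible prostaglandin E synthase, was at 1.04, 0.863 and 0.281 CPM in EHE17 and at 94.1 and 295 CPM in EHE26 (log2 fold change 8.04 ± 0.73, adjusted p = 0.00779). Pla2g4a, the phospholipase that frees arachidonic acid, was at 4.29, 2.52 and 4.41 CPM against 88.9 and 88.7 CPM (4.57 ± 0.71, adjusted p = 0.0321). These were the 2 called of 13 tested genes of the list, where 9 fold changes were positive and 4 negative. At an unadjusted p under 0.05 by edgeR, 6 were higher and 3 lower, and DESeq2 called 5 higher and 2 lower. Slco2a1, a prostaglandin transporter gene, was at 2.31, 4.07 and 0.843 CPM against 176 and 439 CPM. EHE17 replicate 3 lay with EHE17 in all 3, and for Ptges and Slco2a1 it was the lowest library. The cyclooxygenase genes did not pass the test: Ptgs1 was at 6.42, 10.7 and 20.7 CPM against 92.0 and 59.2 CPM, and Ptgs2 at 15.4, 4.42 and 18.0 CPM against 25.7 and 46.6 CPM.

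Cholesterol synthesis genes had positive fold changes throughout the list. Of 24 tested, 4 rose and 0 fell, the median log2 fold change was 1.71, all 24 fold changes were positive, and 19 had an unadjusted p under 0.05. Among the 4 were the sterol pathway enzyme genes Sqle, Lss and Cyp51. Sqle was at 26.4, 37.1 and 41.0 CPM in EHE17 and at 203 and 141 CPM in EHE26 (log2 fold change 2.30 ± 0.29, adjusted p = 0.0144). Lss was at 10.6, 14.0 and 13.5 CPM against 89.7 and 51.9 CPM, and Cyp51 at 16.0, 21.1 and 35.9 CPM against 226 and 135 CPM. EHE17 replicate 3 lay with EHE17 in all 4, and in the fit without it the 4 calls held 2 genes placed with EHE17 and 2 placed between, namely Idi1 and Msmo1. Leaving out any single EHE17 replicate 1 or 2, or either EHE26 library, left 0 calls on this list.

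**Figure D4:**
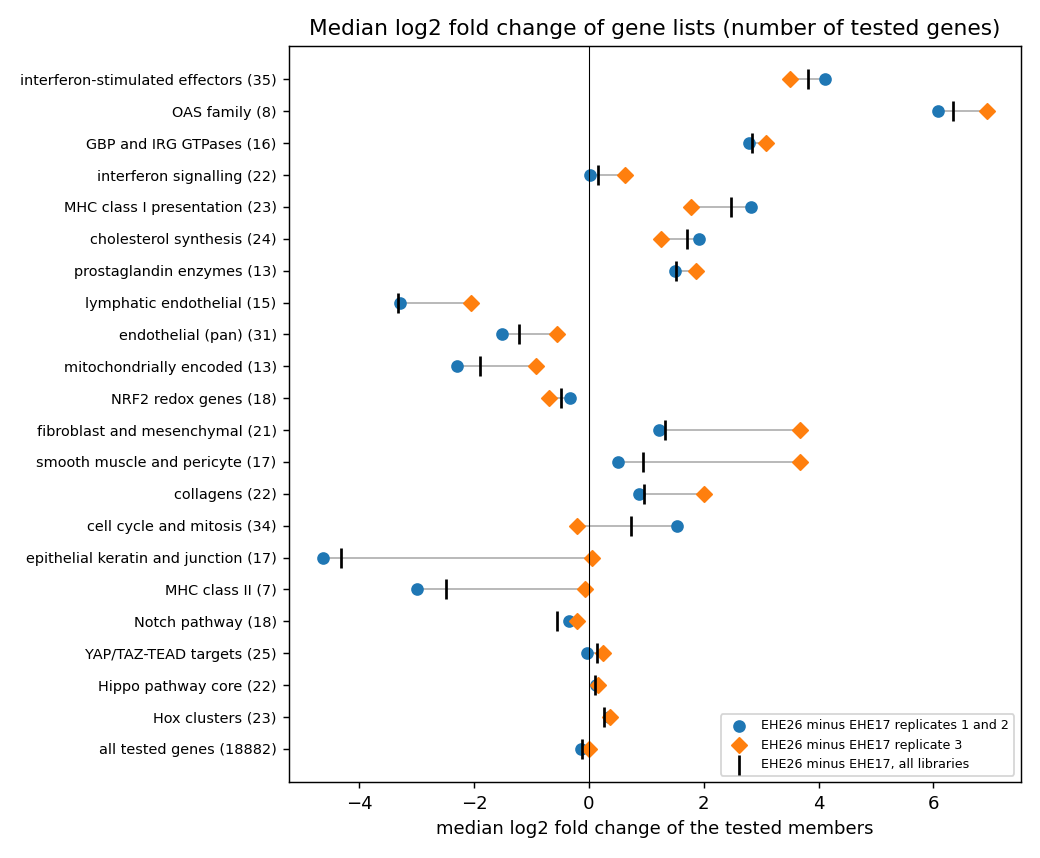
Median log2 fold change over the tested members of 21 gene lists and over all tested genes (member counts in brackets) for EHE26 over EHE17 replicates 1 and 2 (circles), over EHE17 replicate 3 (diamonds) and over all of EHE17 (bars). Interferon effector, OAS and GTPase medians are 4.11, 6.08 and 2.78 over EHE17 replicates 1 and 2, and 3.50, 6.94 and 3.08 over replicate 3. The interferon signalling median moves from 0.01 to 0.62 and the epithelial median from -4.64 to 0.05.

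For cell cycle genes EHE17 replicate 3 lay with EHE26. Of 34 tested, 0 were called by edgeR with the line as the only term and 0 by DESeq2, and 0 had an unadjusted p under 0.05. In the fit with 1 mean for each line in each set, 19 of the 34 were higher in EHE26 than in EHE17 replicates 1 and 2. Their summed level was 1073 and 1839 CPM in EHE17 replicates 1 and 2, 4752 CPM in replicate 3 and 4053 and 3833 CPM in EHE26. Replicate 3 differed from its line in 12 genes, all higher, with a median of 1.82, and the median of EHE26 was 1.53 over replicates 1 and 2 and -0.20 over replicate 3, where edgeR called 0 of 34 and 3 had an unadjusted p under 0.05. Mki67, the Ki-67 proliferation marker, was at 56.2 and 59.0 CPM, then 224 CPM in replicate 3, and 226 and 183 CPM in EHE26. The EHE17 line as a whole thus overlapped EHE26 for Mki67.

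For most epithelial genes EHE17 replicate 3 also lay with EHE26, in 11 of the 17 (64.7%). The share was 40.6% over all tested genes that differed by 1 or more on the log2 scale between EHE26 and EHE17 replicates 1 and 2. Of 17 tested, 1 fell, Ocln, a tight junction protein gene, at 89.0, 94.1 and 35.4 CPM against 5.22 and 2.11 CPM (log2 fold change -4.31 ± 0.70, adjusted p = 0.0366), where replicate 3 lay with EHE17. The list median was -4.64 over EHE17 replicates 1 and 2 and 0.05 over replicate 3. Epcam and Cdh1, which mark epithelial cells, were at 3.89 and 8.14, and 4.25 and 5.76 CPM in EHE17 replicates 1 and 2, at 0 in replicate 3 and at most 0.0368 CPM in EHE26. Levels of this size were low in every library. The summed list was at 127, 147 and 40.9 CPM in EHE17 and 15.4 and 37.8 CPM in EHE26. Ocln, which lay with EHE17, made up most of the sum in each EHE17 library. The list median of replicate 3 over replicates 1 and 2 was -3.89 on the log2 scale.

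The 13 mitochondrially encoded genes were all lower in EHE26, with a median of -1.90, and 1 passed the test. That gene, mt-Nd2 (a subunit of complex I), was at 724, 742 and 463 CPM in EHE17 and at 166 and 131 CPM in EHE26, with replicate 3 with EHE17 (log2 fold change -2.11 ± 0.34, adjusted p = 0.0348). The list median was -2.30 over replicates 1 and 2 and -0.91 over replicate 3, and its summed level was 13690 and 13490 CPM in those 2, 6345 CPM in replicate 3 and 2756 and 2545 CPM in EHE26. These transcripts vary with RNA quality and library preparation, and that cause was not tested.

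Among the other genes that fell, EHE17 replicate 3 lay with EHE17 in every gene named here. Pir, a redox-sensing iron protein, was at 9.64, 15.5 and 32.7 CPM in EHE17 and at 0.166 and 0.0219 CPM in EHE26 (log2 fold change -7.61 ± 1.01, adjusted p = 0.0167). Nox4, the NADPH oxidase that makes hydrogen peroxide, was at 72.7, 21.9 and 32.2 CPM against 0.442 and 0.307 CPM (-6.81 ± 1.12, adjusted p = 0.0381). They were the 2 called of 18 tested redox genes of the NRF2 list. Scn3a, a sodium channel gene, was at 87.1, 44.1 and 97.2 CPM against 0.846 and 0.241 CPM, and Npy, the neuropeptide Y gene, at 15.2, 17.6 and 48.9 CPM against 0.331 and 0.482 CPM. Susd4, a complement regulator gene, was at 53.9, 89.5 and 42.7 CPM against 0 and 0.110 CPM. Sox13, a transcription factor gene, was at 37.3, 44.2 and 28.5 CPM against 0.681 and 0.439 CPM. Eps8l1, an actin regulator gene related to Eps8, was at 33.8, 30.9 and 26.5 CPM against 0.662 and 0.439 CPM, and it was called in all 8 fits that left out 1 library. Kctd12b, Gdpd3, Ccdc3 and Fez1 fell by 5.31, 4.36, 4.23 and 3.59 on the log2 scale. Aqp8, an aquaporin, had 2 reads over both EHE26 libraries, so its ratio of EHE17 to EHE26 was 405 with an interval from 112 to 3345 (counting error only).

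**Figure D5:**
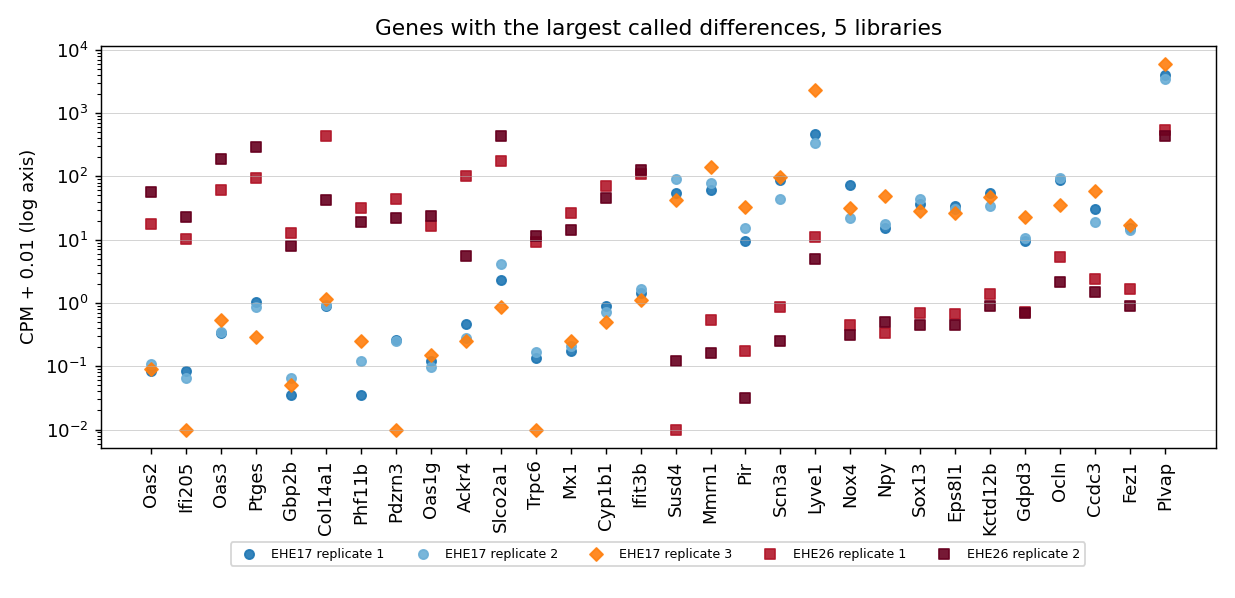
Level in each of the 5 libraries (CPM plus 0.01, log axis) of 15 called genes that rose and 15 that fell. They have the largest changes among called genes without overlap and with a mean of at least 10 CPM in the higher line. Predicted, Xist and Y-linked genes were left out, so some larger changes at lower levels, such as that of Aqp8, are not shown. Circles are EHE17 replicates 1 and 2, diamonds EHE17 replicate 3, squares EHE26. Every diamond lies on the EHE17 side of the gap between the lines, as for Lyve1 at 2352 CPM against at most 11.1 CPM in EHE26.

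Several other genes that rose belong to no interferon list. Col14a1, a fibril-associated collagen gene, was at 0.895, 0.930 and 1.16 CPM in EHE17 and at 429 and 42.0 CPM in EHE26 (log2 fold change 7.89 ± 0.96, adjusted p = 0.013). Cyp1b1, a target of the aryl hydrocarbon receptor, was at 0.870, 0.697 and 0.482 CPM against 71.4 and 45.4 CPM. Ackr4, a scavenger receptor for chemokines, was at 0.447, 0.266 and 0.241 CPM against 103 and 5.50 CPM, so that the EHE26 libraries differed widely in this gene. Cx3cl1 (fractalkine) was at 26.4, 16.2 and 14.7 CPM against 790 and 618 CPM, and Ackr4 and Cx3cl1 were the 2 called of 14 chemokine genes. Trpc6, a cation channel, and Pdzrn3, an ubiquitin ligase, had no read in EHE17 replicate 3, with 9.11 and 11.6 CPM and with 44.2 and 21.8 CPM in EHE26. Among growth factor and matrix genes the protease genes Adamts12 and Mmp13, the TGF-beta binding protein gene Ltbp1 and the activin subunit gene Inhba rose by 2.53, 4.85, 3.42 and 3.73 on the log2 scale. Spry4, a feedback inhibitor of ERK signalling, rose by 2.21 and Pfkp, a glycolytic enzyme gene, by 1.56. EHE17 replicate 3 lay with EHE17 in all the genes of this paragraph except Inhba, where its place was just inside the middle class at 0.3002. B3gnt3, a glycosyltransferase gene chosen after its values were seen, was at 3.60, 6.29 and 3.03 CPM against 300.5 and 286 CPM and, like Eps8l1, was called in all 8 fits that left out 1 library.

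Neither gene of the human fusion passed the test, and with the line as the only term no tested YAP/TAZ target gene did. Wwtr1 was at 87.1, 116 and 74.5 CPM in EHE17 and at 84.8 and 107 CPM in EHE26 (log2 fold change 0.05 ± 0.27, adjusted p = 0.935). Camta1 was at 413, 595 and 364 CPM against 337 and 373 CPM (adjusted p = 0.566), and EHE17 replicate 3 lay with EHE26. Counts per gene cannot show a fusion transcript. Of 25 tested YAP/TAZ and TEAD target genes 0 were called by edgeR with the line as the only term, 7 had an unadjusted p under 0.05, and DESeq2 called 3, all lower. The fit with 1 mean for each line in each set called 7 higher and 3 lower against EHE17 replicates 1 and 2, and 6 higher and 1 lower against replicate 3. With only the EHE17 and EHE26 libraries 4 were higher and 1 lower. Ccn2 (CTGF), a well known target, was at 62.0 and 49.7 CPM in EHE17 replicates 1 and 2, at 1.85 CPM in replicate 3 and at 2.45 and 0.943 CPM in EHE26. For Ccn2, EHE17 replicate 3 lay with EHE26 and differed from its line by -4.92 on the log2 scale (adjusted p = 0.0239). Of 23 tested Hox genes 0 were called by edgeR in the same line-only fit, DESeq2 called 0, and 0 had an unadjusted p under 0.05. Against EHE17 replicates 1 and 2, 1 was called higher and 1 lower. Hoxb7 was at 28.3, 33.8 and 42.0 CPM against 52.4 and 43.7 CPM, with replicate 3 between.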

How the data were processed

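RNA from the 8 libraries was extracted with the RNeasy Mini kit, polyA-selected and prepared with NEBNext Ultra II, per the labels' protocols. HISAT2 and the mm10 build are named in the submitters' processing notes. The counting tool, annotation and strand setting are not given in the sources used here. The authors deposited raw counts, 1 row for each of 55401 Ensembl identifiers, of which 55141 matched GENCODE M21 for symbols. Counts were TMM-normalised, filtered with filterByExpr by line (18882 genes kept) and tested with edgeR 4.0.16 (R 4.3.3, quasi-likelihood, Benjamini-Hochberg over all tested genes); DESeq2 1.42.0 was an alternative. Residual degrees of freedom were 5, and 3 in the fit with 1 mean for each line in each set. SE is the absolute log2 fold change over the square root of F. The scripts were tested on simulated data. CPM use TMM factors, and places use log2 CPM with a prior count of 2. Named genes are up to 15 per direction by size of change among called genes without overlap and at least 10 CPM (no predicted, Xist or Y-linked genes), up to 6 per direction and place, up to 4 called members per list and a fixed set. The comparison, its lists and the genes named were chosen with earlier results of these data known. Replicate numbers were not treated as pairs in the main fit. Counting intervals are exact at 95% and cover counting error only. A few genes that the rule names are not reported here.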

Additional observations from a re-analysis of the deposited data

How the results depend on the processing

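With RLE factors 204 genes were called, 203 of them shared. Counts moved by more than 1.5 times under other settings: 1685 with DESeq2 (693 higher, 992 lower), 745 with no low-count filter (478 and 267), 764 with only the EHE17 and EHE26 libraries (472 and 292), 319 with the library set added as a term (76 lower; 159 of the 203 were shared), 4091 against EHE17 replicates 1 and 2 (1630 and 2461) and 1175 against EHE17 replicate 3 (677 and 498). Leaving out 1 library gave 2 to 1415 calls, 1 to 749 higher and 1 to 666 lower. Departures of same-numbered EHE17 and EHE26 libraries from their line means had correlations of -0.0636 and -0.115. The EHE26 departures are equal and opposite by construction, and the EHE17 mean includes replicate 3, so this check cannot settle whether the numbers pair libraries. With the replicate block 1860 genes were called (918 and 942). The fit without EHE17 replicate 3 gave 3654 calls (1457 and 2197) from only the other 4 libraries, and 0 to 4150 calls (0 to 1605 higher, 0 to 2545 lower) when 1 more library was left out, alternatives chosen after seeing the data, as were those against EHE17 replicate 3 (927 to 1285). Placed at a border of 0.5, 14 in place of 2 higher genes lay with EHE26. Uncalled genes that changed sign were, with the set as a term, Ccn2 0.18, Cdh5 0.39, Erg 0.18, Mki67 -0.08405 and Pecam1 0.014; against EHE17 replicate 3, Cdh5 0.024, Mki67 -0.13, Rtl1 3.49 and Thbs2 -0.16; and Wwtr1 -0.082 against EHE17 replicates 1 and 2, and from -0.12 (without EHE26 replicate 2) to 0.2367 (without EHE17 replicate 2) when 1 library was left out, with -0.0798 without EHE17 replicate 3. The cause of these moves was not tested.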
